A study of Mus musculus with 18 samples.

Results

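The comparison described here set BMS961 against BMS753 in F9 cells, an embryonal carcinoma line of the mouse whose cells differentiate under retinoids. Per the labels, BMS961 is a retinoid specific for retinoic acid receptor γ (RARγ) and BMS753 one specific for RARα. The 4 BMS961 arrays and the 4 BMS753 arrays were chosen by agent and paired by time, at 2, 6, 24 and 48 h, which took 8 of the 18 arrays of the series. BMS961 was used at 0.1 µM and BMS753 at 1 µM, so that receptor specificity and dose cannot be told apart in any difference below. All cells were grown on gelatine with serum, and none of the groups carries a genetic change in the labels. The other 10 arrays were 4 of all-trans retinoic acid (ATRA, which activates all RARs) and 4 of BMS641 (RARβ-specific per the labels), both at 1 µM and at the same times, and 2 of cells kept for 48 h in ethanol, the vehicle.

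RARs are ligand-activated transcription factors that bind DNA as partners of retinoid X receptors (RXRs), commonly at direct repeats of a short motif in or near their target genes. Without ligand the pair recruits corepressors, and an agonist exchanges them for coactivators. Genes switched on directly include Rarb itself and Cyp26a1, whose product degrades retinoic acid, while many changes that come with differentiation follow later. F9 cells given retinoic acid in monolayer turn into cells that resemble primitive endoderm, the extraembryonic lineage that lines the blastocyst cavity and gives rise to parietal and visceral endoderm.

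Levels are log2 values per gene from whole-transcript arrays of total RNA, and a difference of 1 between BMS961 and BMS753 is a 2-fold ratio of the levels. There was 1 array for each retinoid and time, and the labels do not say whether arrays came from separate cultures. A single time therefore has no test. Tests used the paired differences of several times as the replicates, so their spread can hold real differences in time course, and it is not the spread between repeated cultures. The median absolute difference over 19938 genes was 0.14, 0.13, 0.12 and 0.16 at 2, 6, 24 and 48 h, against 0.23 between the 2 vehicle arrays. The vehicle arrays thus lay further apart than any BMS961 and BMS753 pair, and they enter no test here. Of 12 F9 markers, Pou5f1 lay between 11.87 and 12.19 and Nanog between 11.63 and 11.95 on all 8 arrays. Others moved more. The median level of the 12 was 10.82 at 2 h and 10.30 at 48 h with BMS961, and 10.83 and 10.99 with BMS753. The leucocyte marker Ptprc lay between 4.05 and 4.33, and the median level of 8 measured macrophage and blood cell genes between 4.29 and 4.53. No detection call says whether such levels are background.

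Across all 4 times no gene passed. The linear model in limma, with time as a block, called 0 of 19938 genes at a Benjamini-Hochberg adjusted p under 0.05 (0%), while 2075 genes had an unadjusted p under 0.05. The smallest adjusted p was 0.0706. With 4 pairs an exact sign-flip test of a single gene cannot give a two-sided p below 0.125. At least 2-fold higher with BMS961 at every time was 1 gene (0.00502% of those measured), Cyp26a1, and 0 genes were as much lower at every time.

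Cyp26a1, which codes for the cytochrome P450 that clears retinoic acid, had the largest mean difference over the 4 times. Its level with BMS961 was 8.04, 9.07, 8.94 and 9.14 at 2, 6, 24 and 48 h, and with BMS753 it was 6.56, 7.00, 6.16 and 5.57. Every BMS961 array lay above every BMS753 array, and the BMS753 level was lowest at 48 h, still above the vehicle arrays at 5.05 and 4.85. The ratio of BMS961 to BMS753 went from 2.80-fold at 2 h to 4.18-fold, 6.87-fold and 11.9-fold. The mean difference over the 4 times was 2.48 ± 0.27 (standard error, SE, n = 4 pairs; adjusted p = 0.0706, limma).

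Rarb, the gene of RARβ and a direct target of its own receptor family, differed by less and by a nearly constant amount. It measured 5.95, 6.52, 8.05 and 8.52 with BMS961 and 5.21, 5.90, 7.05 and 7.82 with BMS753. With both retinoids the level was higher at each later time, and at each time BMS961 was the higher, by 0.73, 0.62, 1.01 and 0.71. The mean difference was 0.77 ± 0.09 (n = 4 pairs, adjusted p = 0.0706, limma).

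The promoters of these genes hold the motif at which RARs are known to bind, and they are shown for that reason. A direct repeat with 5 bases between its copies (a DR5 element of the retinoic acid receptor) was searched on both strands in the 250 bases before and 50 bases after each start in RefSeq (GRCm38.p6). The 100 bases just before the start read as follows, 5′ to 3′ on the gene's own strand, with the repeat in capitals.
Rarb, chr14:16575477-16575576, minus strand: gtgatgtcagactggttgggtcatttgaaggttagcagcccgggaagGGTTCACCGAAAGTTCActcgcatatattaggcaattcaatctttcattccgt
Cyp26a1, chr19:37697708-37697807, plus strand: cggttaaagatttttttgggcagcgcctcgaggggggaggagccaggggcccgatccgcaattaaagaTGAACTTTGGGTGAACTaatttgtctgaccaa
The repeat lies 53 to 37 bases before the start of Rarb, on the gene's strand, and 32 to 16 bases before that of Cyp26a1, where it reads on the opposite strand. Of the 61 genes called at the late times below, 42 were in the promoter table, and the DR5 repeat was found in 2 of them (4.76%), against 31 of all 27025 genes of the table (0.115%) and 11 of its 15614 measured genes (0.0704%). Repeats with 1 or 2 bases between the copies were in 0 of the 42 and in 0.263% and 0.311% of all genes of the table. A match describes letters in this window and says nothing of binding in these cells.

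The other genes of the largest same-signed differences over 4 times did not pass either. The higher ones after Cyp26a1 were Gata6, Hoxa5, Calcoco2, Srgn, Aqp3, Cidea, Dkk1, Stra6 and Ehd2, with mean differences from 1.47 for Gata6 to 0.87 for Ehd2. The lower ones were Slc27a2, Socs2, Crmp1, Otx2, Bcl11a, Myb, Krt17, Adgrl2, Dnmt3l and Adam19, from -0.90 for Slc27a2 to -0.63 for Adam19. Aqp3, a water and glycerol channel, was among the steadiest of them, at 8.78, 9.91, 10.92 and 10.78 with BMS961 and 7.69, 8.59, 9.88 and 10.30 with BMS753 (difference 0.98 ± 0.12, n = 4 pairs, adjusted p = 0.0796, limma). The difference in Aqp3 was smallest at 48 h, at 0.49. Its vehicle arrays lay apart, at 8.88 and 5.95. Dkk1, a secreted WNT inhibitor, rests on 1 array: it measured 7.99 with BMS961 at 48 h and between 4.77 and 5.26 on the other 7 arrays.

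Split by time, the early arrays (2 and 6 h) and the late arrays (24 and 48 h) differed in what they gave. Both phases were fitted together with a common estimate of each gene's spread. It was taken from the early and the late pairs and drawn towards that of the other genes. A late standard error is thus not the spread of the 2 late pairs, and n = 2 pairs counts only the differences behind the mean. Early, limma called 0 genes (0%), with 957 at an unadjusted p under 0.05 and a smallest adjusted p of 0.446. Late, it called 61 genes (0.306%), of which 34 were higher with BMS961 (0.171%) and 27 lower (0.135%). The split was 42 higher and 49 lower with arrays centred on their median, and 67 and 73 with trend and robust eBayes, while a fit of the 16 retinoid arrays called 13. The mean late difference was at least 2-fold for 27 of the 34 and for 15 of the 27. When all 35556 probe sets of the table, also those with no listed gene, entered the fit, it called 0. The smallest adjusted p was then 0.374, with 2514 probe sets at an unadjusted p under 0.05. All 61 genes lost their call there, so the late calls depend on which probe sets enter the fit. The late calls also depend on the late pairs. Fewer of the 61 were called again without the 48 h pair than without the 24 h pair. In both of those fits late is 1 array per agonist, and the spread comes from the early pairs alone. Without the 2 h pair, and likewise without the 6 h pair, the count was 132, with all 61 among them. Of the 61, 7 were called under every planned setting that tested them. Counted by size alone, 9 genes were at least 2-fold higher with BMS961 at 2 h (0.0451%), 3 at 6 h (0.015%), 37 at 24 h (0.186%) and 127 at 48 h (0.637%). The lower counts were 2 (0.01%), 7 (0.0351%), 17 (0.0853%) and 42 (0.211%). By the same size the 2 vehicle arrays differed in 311 genes one way (1.56%) and 354 the other (1.78%), more than any of these pairs.

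**Figure D1:**
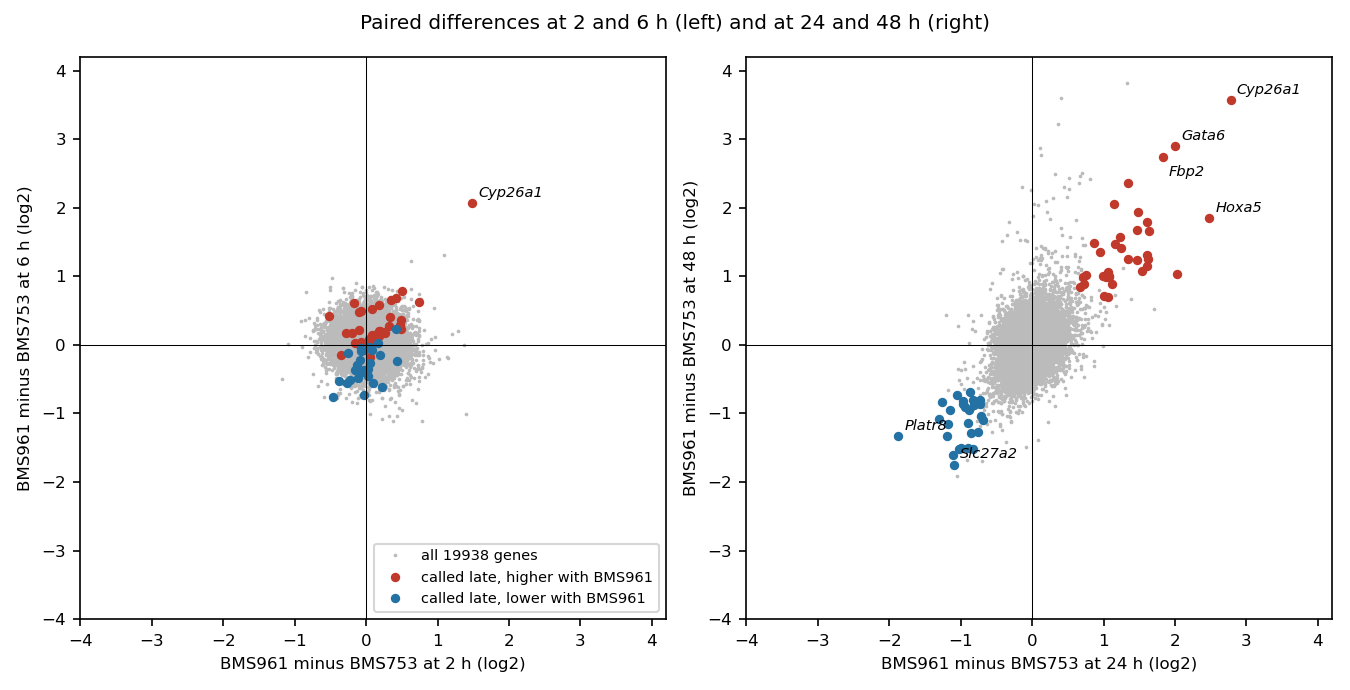
Each point is a gene, placed by its log2 difference (BMS961 minus BMS753) at 2 h (x) and 6 h (y) on the left and at 24 h (x) and 48 h (y) on the right. Grey points are all 19938 genes, red and blue points the 34 and 27 genes called late, which lie mostly within the grey cloud on the left, where Cyp26a1 (1.49 and 2.06) is far outside it and Rarb (0.73 and 0.62) and Otx2 (-0.46 and -0.76) are near its edge, and which were called from the values on the right.

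Of the genes that led the early differences on the higher side, Cyp26a1 was also called late, while Aqp3 and Stra8 were not. Cyp26a1 (1.77) and Aqp3 (1.20) had the largest mean differences over 2 and 6 h, followed by Stra8 (0.93), a retinoid-induced gene needed for entry into meiosis. Stra8 measured 5.98, 8.25, 10.24 and 10.37 with BMS961 and 5.36, 7.02, 9.16 and 10.08 with BMS753. The difference in Stra8 was largest at 6 h (1.23) and smallest at 48 h (0.29), when both levels were above 10. The vehicle arrays of Stra8 were at 8.44 and 5.17. The peptide transporter gene Slc15a1 (0.75) and Mrpl42 (0.75), of the mitochondrial ribosome, followed. The value of Mrpl42 rests on the 2 h pair, with differences of 1.29 at 2 h and 0.21 at 6 h. On the lower side were Usp17ld (-0.84), Dnah7b (-0.68), Serpina1c (-0.64), Otx2 (-0.61) and St6galnac1 (-0.60). Usp17ld and Serpina1c belong to families of near-identical copies, so which copy the probes measured is uncertain. None of these early differences passed.

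Among the 6 retinoid receptor genes, Rarb was called higher and Rxrg, the gene of RXRγ, lower with BMS961 at the late times (0.171% and 0.135% of all genes). The late difference was 0.86 ± 0.12 (n = 2 pairs, adjusted p = 0.0418, limma) for Rarb. Rxrg measured 6.57, 6.80, 5.89 and 4.95 with BMS961 and 6.14, 6.56, 6.76 and 5.64 with BMS753. It was the higher with BMS961 at 2 and 6 h and the lower at 24 and 48 h, with a late difference of -0.78 ± 0.12 (n = 2 pairs, adjusted p = 0.0489, limma). The receptors that the agonists are named for did not pass. Rarg, the gene of RARγ, lay between 8.94 and 9.53 with BMS961 and between 9.39 and 9.72 with BMS753, with a late difference of -0.34 (95% interval -0.60 to -0.07). Rara, the gene of RARα, was at 7.92 and 7.18 on the late BMS961 arrays and at 8.23 and 8.15 on the BMS753 arrays, a late difference of -0.63 (95% interval -1.01 to -0.26, adjusted p = 0.208, limma). The intervals of Rxra (-0.38 to 0.14) and Rxrb (-0.49 to 0.03) include 0. Of 13 measured corepressors and coactivators 0 were called, with a median late difference of -0.08 against 0.00 over all genes.

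Of 19 measured genes of retinoid metabolism and binding, 3 were called higher late (Cyp26a1, Crabp2 and Stra6) and 0 lower, against 0.171% and 0.135% of all genes. The late difference of Cyp26a1 was 3.18 ± 0.20, a 9.04-fold ratio (n = 2 pairs, adjusted p = 0.00388, limma). Crabp2, which codes for the binding protein that carries retinoic acid to nuclear receptors, measured 6.58, 6.64, 8.59 and 7.97 with BMS961 and 6.66, 6.59, 7.12 and 6.30 with BMS753. The retinoids were within 0.08 of each other at 2 and 6 h and apart by 1.47 and 1.68 at 24 and 48 h (late 1.57 ± 0.11, adjusted p = 0.00388). Stra6, the gene of the membrane receptor for retinol-binding protein, went from 6.25 to 7.66 with BMS961 between 2 and 48 h and from 6.07 to 6.35 with BMS753 (late 1.46 ± 0.14, adjusted p = 0.00905). Dhrs3, the gene of a reductase that turns retinal back into retinol, just missed the threshold at a late difference of 1.20 ± 0.18 (adjusted p = 0.0514). The sister genes of Cyp26a1 differed little: the late interval was 0.09 to 0.69 for Cyp26b1 and -0.35 to 0.15 for Cyp26c1. The median late difference of the 19 genes was 0.13, so the difference sat in a few members.

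**Figure D2:**
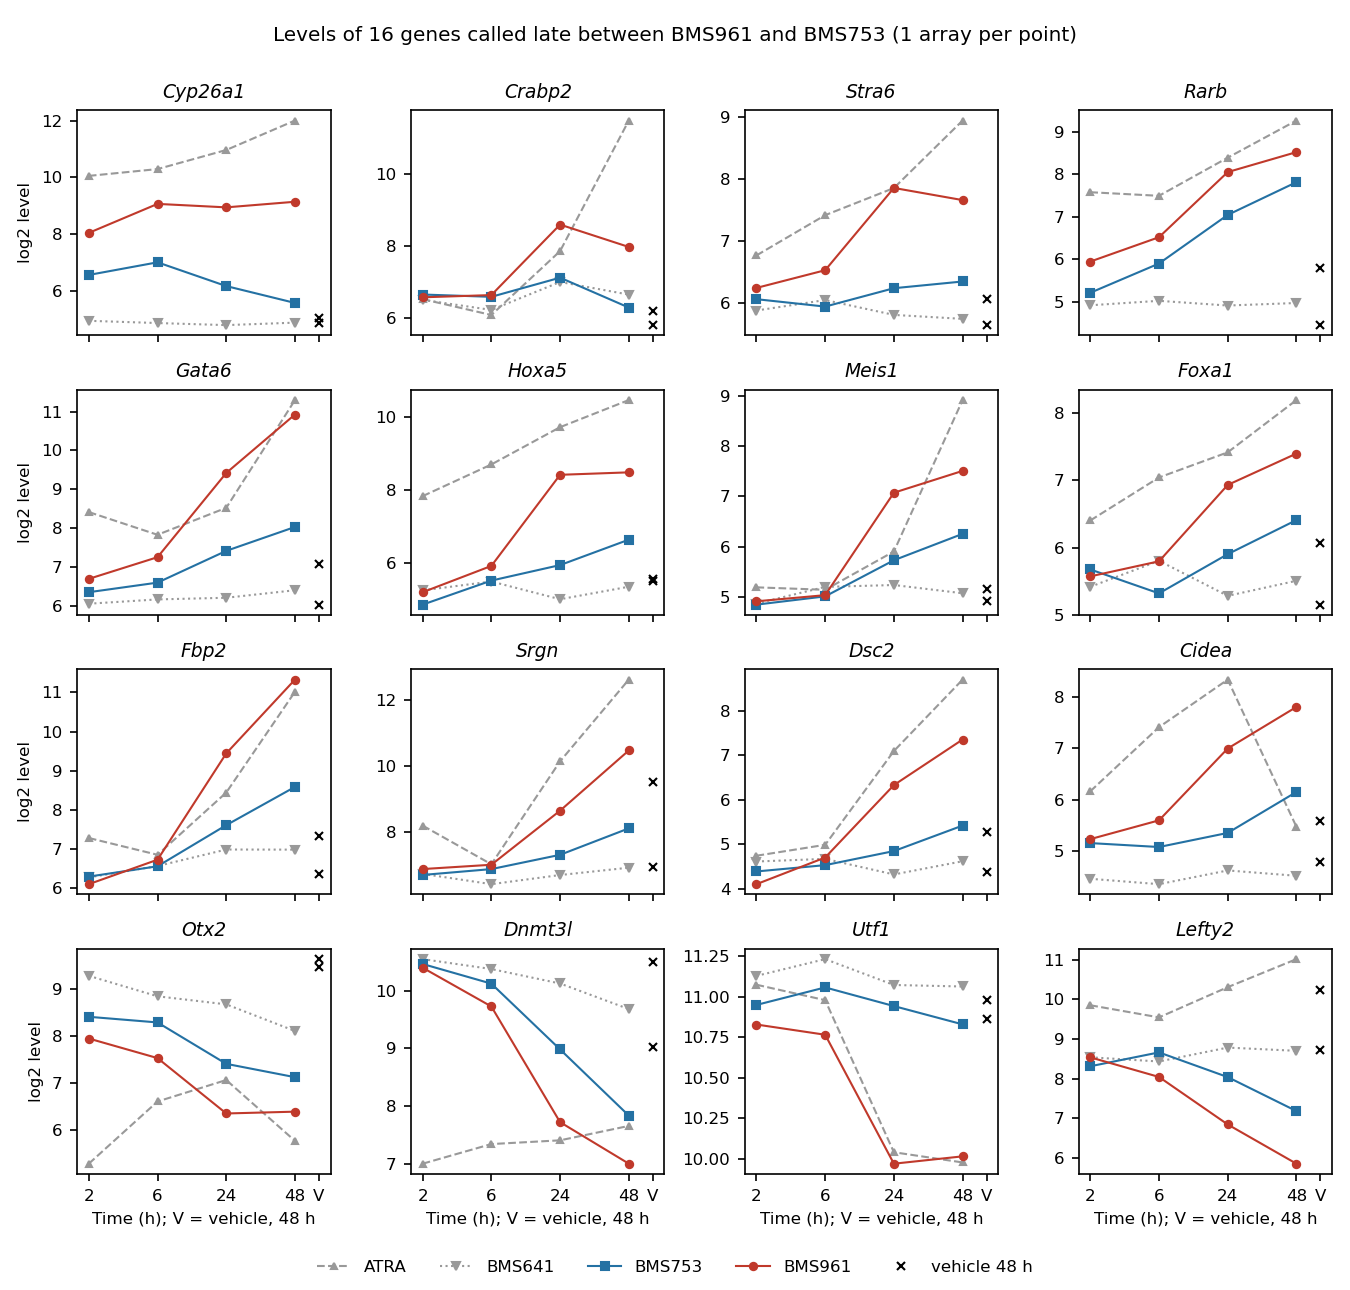
Log2 level (y) of 16 genes called late at 2, 6, 24 and 48 h (x) with BMS961 (red), BMS753 (blue), ATRA and BMS641 (grey dashed and dotted), 1 array per point, with the 2 vehicle arrays of 48 h as crosses. In most panels the red and blue lines start together and part by 24 h, as in Crabp2 (6.58 and 6.66 at 2 h, 8.59 and 7.12 at 24 h), while those of Cyp26a1 and Rarb are apart at 2 h.

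Of 23 measured early retinoid targets from textbook knowledge, 4 were called higher late and 0 lower (0.171% and 0.135% of all genes). The 4 called are transcription factor genes or regulators of development. Gata6, which drives the primitive endoderm programme, had the largest late difference of the called genes after Cyp26a1. It measured 6.69, 7.25, 9.42 and 10.93 with BMS961 and 6.35, 6.60, 7.41 and 8.03 with BMS753. At 24 h BMS961 was already above the 48 h level of BMS753, and the late difference was 2.45 ± 0.20, or 5.47-fold (n = 2 pairs, adjusted p = 0.00536, limma). Meis1, a homeobox partner of HOX proteins, had 1.30 ± 0.11 (adjusted p = 0.00536), Greb1l 1.04 ± 0.12 (adjusted p = 0.0175) and Foxa1, a forkhead factor of endoderm, 1.01 ± 0.15 (adjusted p = 0.0481). Among the members not called were Tgm2 (0.85), Stra8 (0.68), Meis2 (0.62) and Pdgfa (-0.68). In all, 15 of the 23 were higher with BMS961 at both late times and 3 lower, against 28.3% and 31.6% of all genes, and their median late difference was 0.28.

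The Hox genes of clusters A and B, which pattern the body axis and answer to retinoids in order along the cluster, gave 2 called genes, Hoxa5 and Hoxb4, among 19 measured (0.171% of all genes were called higher). At both 24 and 48 h 17 of the 19 were higher with BMS961 and 0 lower, against 28.3% and 31.6% of all genes. Hoxa5 measured 5.20, 5.92, 8.42 and 8.49 with BMS961 and 4.86, 5.52, 5.95 and 6.64 with BMS753. The BMS961 level had reached its plateau by 24 h, when the ratio was 5.57-fold, and the late difference was 2.16 ± 0.15 (n = 2 pairs, adjusted p = 0.00388, limma). Hoxb4 stood at 6.21 and 6.18 with BMS961 and at 5.13 and 5.18 with BMS753 at 24 and 48 h, a difference of 1.04 ± 0.15 (adjusted p = 0.0418). The members not called with the largest late differences were Hoxb2 (1.11), Hoxb5 (0.87), Hoxa2 (0.72), Hoxa4 (0.70) and Hoxb1 (0.66), and those from the far ends of the clusters were smaller, such as Hoxa9 (0.08), Hoxa13 (0.10) and Hoxa11 (-0.06). The median of the 19 was 0.34. Of 18 measured genes of clusters C and D 0 were called, 7 were higher and 7 lower at both late times, and the median was 0.06.

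Of 29 measured genes of primitive and parietal endoderm, 3 were called higher late (Gata6, Foxa1 and Srgn, against 0.171% of all genes) and 0 lower. Gata6 and Foxa1 were already counted among the early retinoid targets, since the lists overlap. Under the other planned settings Foxa1 was called in 5 of 11, and Gata6 and Srgn in 10 of 11. At both late times 22 were higher and 2 lower (28.3% and 31.6% of all genes), and the median difference went from 0.21 at 24 h to 0.70 at 48 h, against -0.02 and 0.01 over all genes. Srgn, which codes for the core protein of the proteoglycan serglycin, measured 8.65 and 10.47 with BMS961 and 7.31 and 8.11 with BMS753 at 24 and 48 h (late 1.85 ± 0.21, n = 2 pairs, adjusted p = 0.0175, limma). Srgn also stood apart between the vehicle arrays, at 9.52 and 6.92.

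Several endoderm genes with large differences at 48 h did not pass, and their 24 and 48 h differences were far apart. Pdgfra, the gene of a growth factor receptor of primitive endoderm, measured 5.16, 4.98, 6.53 and 9.98 with BMS961 and 5.16, 4.85, 5.20 and 6.16 with BMS753, a difference of 1.33 at 24 h and 3.82 at 48 h (late 2.57 ± 0.45, adjusted p = 0.0821). Dab2, the gene of an endocytic adaptor, was at 9.74 with BMS961 at 48 h and between 5.52 and 6.14 on the other 7 arrays. The same shape, with the 48 h BMS961 array alone clearly above the rest, held for the transcription factor gene Gata4 (9.17, the other 7 between 6.02 and 7.09), for the laminin chain genes Lama1 (9.70, between 6.88 and 7.74) and Lamb1 (9.84, between 7.53 and 7.86), and for Cubn, the gene of the uptake receptor cubilin (7.50, between 4.38 and 4.73). Late differences of these genes went from 2.01 for Dab2 to 1.08 for Lamb1, with adjusted p from 0.138 to 0.436. Each therefore rests on 1 BMS961 array, and single arrays have no test. Vehicle replicate 1 was above replicate 2 in several of them, at 8.20 and 5.51 for Dab2, 7.26 and 6.28 for Gata4 and 6.44 and 4.63 for Cubn. Of 23 measured visceral endoderm genes and of 25 genes of basement membrane and matrix assembly 0 were called late, with medians of 0.08 and 0.13. In bulk RNA more cells of a type and more RNA per cell cannot be told apart.

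**Figure D3:**
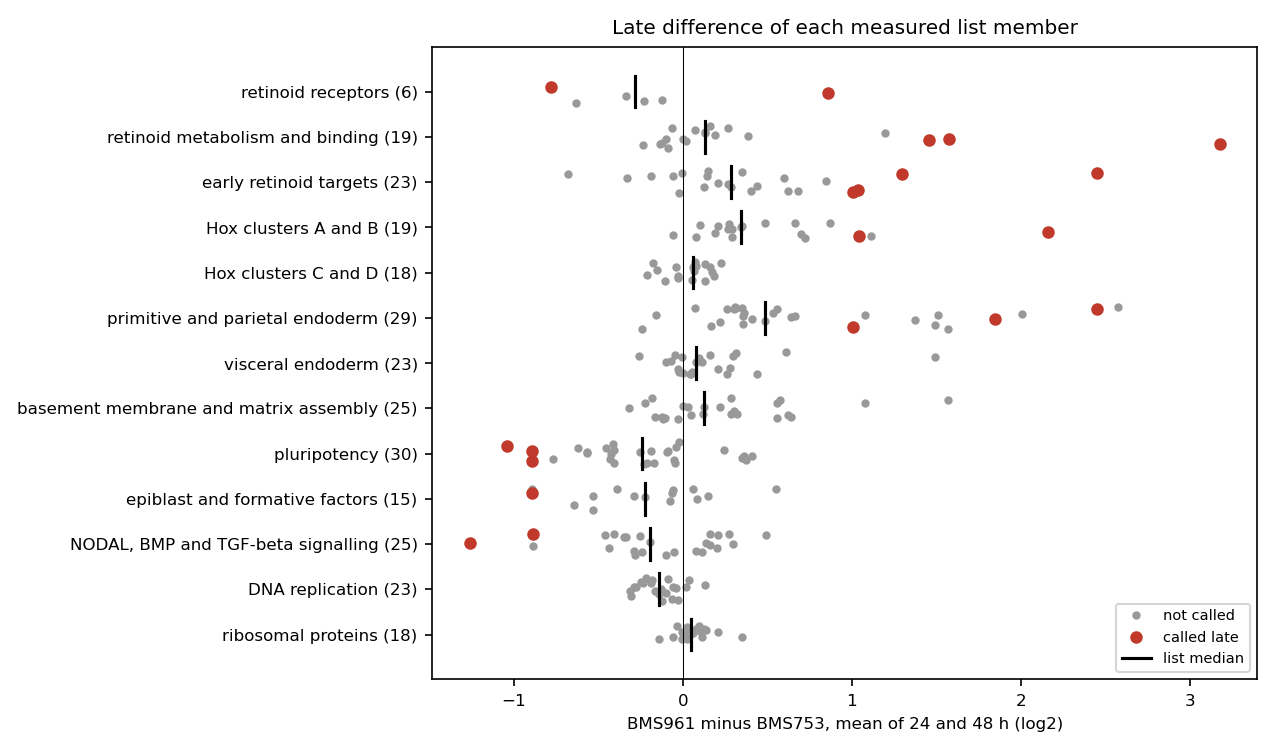
Late difference (x, log2, mean of 24 and 48 h, BMS961 minus BMS753) of each measured member of 13 gene lists (y, number measured in brackets), with genes called late in red, the others in grey and the list median as a black bar. Medians lie right of 0 for primitive and parietal endoderm (0.49), Hox clusters A and B (0.34) and early retinoid targets (0.28), and left of it for pluripotency (-0.24).

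Other called genes with large late differences on the higher side were Fbp2, Dsc2, Crygc, Cidea, Pgam2, Calcoco2 and Fbp1. Fbp2 and Fbp1 code for the fructose-bisphosphatases of gluconeogenesis. They were the only 2 called among 19 measured genes of gluconeogenesis and glycolysis (0.306% of all genes were called). The median of the 19 was -0.13, and 11 were lower and 4 higher at both late times (31.6% and 28.3% of all genes). Fbp2 measured 6.11, 6.73, 9.44 and 11.33 with BMS961 and 6.30, 6.56, 7.61 and 8.59 with BMS753. The agonists were within 0.19 of each other at 2 and 6 h, and from 24 h both levels were higher, that of BMS961 the more so (late 2.28 ± 0.20, 4.87-fold, n = 2 pairs, adjusted p = 0.00632, limma). Fbp1 went to 6.83 and 6.82 with BMS961 against 5.20 and 5.57 (late 1.44 ± 0.13, adjusted p = 0.00632). Pgam2, the gene of the muscle form of phosphoglycerate mutase, was at 6.41 and 6.96 against 5.26 and 4.90 (1.60 ± 0.19, adjusted p = 0.0237).

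Crygc, a lens crystallin gene, lay between 4.78 and 5.09 on all BMS753 arrays and between 4.93 and 4.94 on the early BMS961 arrays, and then at 6.39 and 6.81 with BMS961 (late 1.70 ± 0.12, adjusted p = 0.00388). The vehicle arrays were at 4.84 and 4.95, so the late BMS961 arrays stood apart from all others of these groups. Dsc2, the gene of the desmosomal cadherin desmocollin, reached 6.33 and 7.35 with BMS961 and 4.85 and 5.42 with BMS753 (1.71 ± 0.16, adjusted p = 0.007, limma). Dsc2 was the only gene called among 19 measured keratins, desmosome and tight junction genes (0.306% of all genes were called). Cidea, which codes for a lipid droplet protein, reached 7.00 and 7.81 against 5.35 and 6.15 (1.65 ± 0.13, adjusted p = 0.00536). Calcoco2, of an autophagy receptor family, and Ehd2, of a caveola-associated ATPase, had late differences of 1.53 and 1.31. Calcoco2 was one of the genes at which the vehicle arrays lay far apart, at 8.37 and 4.86.

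The 27 genes lower with BMS961 had late differences from -1.60 to -0.77, against 0.76 to 3.18 for the 34 higher ones. The largest was that of Platr8, a long non-coding RNA, at -1.60 ± 0.18 (n = 2 pairs, adjusted p = 0.0176, limma), with levels of 3.70 and 3.17 with BMS961 and 5.58 and 4.50 with BMS753. With no detection call nothing shows whether the BMS961 levels are above background, so the size of this difference is uncertain. Slc27a2, which codes for a fatty acid transport and activating enzyme, measured 9.62, 8.39, 7.22 and 5.75 with BMS961 and 9.65, 9.13, 8.31 and 7.50 with BMS753. The level was lower at each later time with both retinoids, and the difference was largest at 48 h, at -1.75 (late -1.42 ± 0.20, adjusted p = 0.0418). Socs2, the gene of a suppressor of cytokine signalling, went from 9.01 to 6.81 with BMS961 and from 9.24 to 8.41 with BMS753 between 2 and 48 h (late -1.36 ± 0.15, adjusted p = 0.0156). Enox1 (-1.28), Bnc2 (-1.25), Crmp1 (-1.21), Slc6a15 (-1.19), Pdzd4 (-1.18) and Pcolce2 (-1.16) completed the 10 largest with Lefty2.

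Of 30 measured pluripotency genes, 3 were called lower late with BMS961 (Dnmt3l, Otx2 and Utf1; 0.135% of all genes were called lower) and 0 higher. At both late times 22 were lower and 5 higher (31.6% and 28.3% of all genes), and the median late difference was -0.24. Of 15 measured epiblast and formative factors, 1 was called lower and 0 higher, with a median of -0.23. The 1 called is the same Otx2, which is in both lists. Dnmt3l, the gene of a cofactor of DNA methyltransferases, measured 10.39, 9.72, 7.73 and 7.01 with BMS961 and 10.46, 10.12, 8.98 and 7.84 with BMS753 (late -1.04 ± 0.14, n = 2 pairs, adjusted p = 0.0418, limma). Otx2, a homeobox gene of the epiblast and anterior neural tissue, was lower with BMS961 at all 4 times, with differences of -0.46, -0.76, -1.05 and -0.73 (late -0.89 ± 0.13, adjusted p = 0.0481). For Otx2 all 8 arrays lay below the vehicle arrays, which were at 9.63 and 9.46.

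Utf1, a chromatin factor gene of undifferentiated embryonic cells, was at 9.97 and 10.02 with BMS961 at 24 and 48 h and between 10.83 and 11.06 on all BMS753 arrays (late -0.89 ± 0.11, adjusted p = 0.0323). The core factors Pou5f1, Nanog and Zfp42 differed little, with late intervals of -0.48 to 0.02, -0.48 to 0.05 and -0.44 to 0.05, and Sox2 differed by -0.43 (interval -0.69 to -0.16, adjusted p = 0.243). Tdgf1, the gene of the NODAL co-receptor, was at 10.22 with BMS961 at 48 h and between 11.33 and 12.18 on the other 7 arrays (late -0.89, adjusted p = 0.183). Of the 12 markers used to check the F9 identity, 10 were lower with BMS961 at both late times and 0 higher (31.6% and 28.3% of all genes). The only marker called was Utf1, already counted among the pluripotency genes.

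Of 25 measured genes of NODAL, BMP and TGF-β signalling, Lefty2 and Bmp4 were called lower late and 0 higher (0.135% and 0.171% of all genes). Lefty2, which codes for a secreted inhibitor of NODAL, measured 8.54, 8.05, 6.85 and 5.86 with BMS961 and 8.31, 8.67, 8.04 and 7.18 with BMS753 (late -1.26 ± 0.19, n = 2 pairs, adjusted p = 0.0481, limma). The ligand gene Bmp4 was at 9.34 and 8.71 with BMS961 and at 10.02 and 9.81 with BMS753 (late -0.89 ± 0.13, adjusted p = 0.0481). Nodal itself had a late interval of -0.55 to -0.04 and Lefty1 of -0.58 to 0.01, and neither passed. The median of the list was -0.20.

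**Figure D4:**
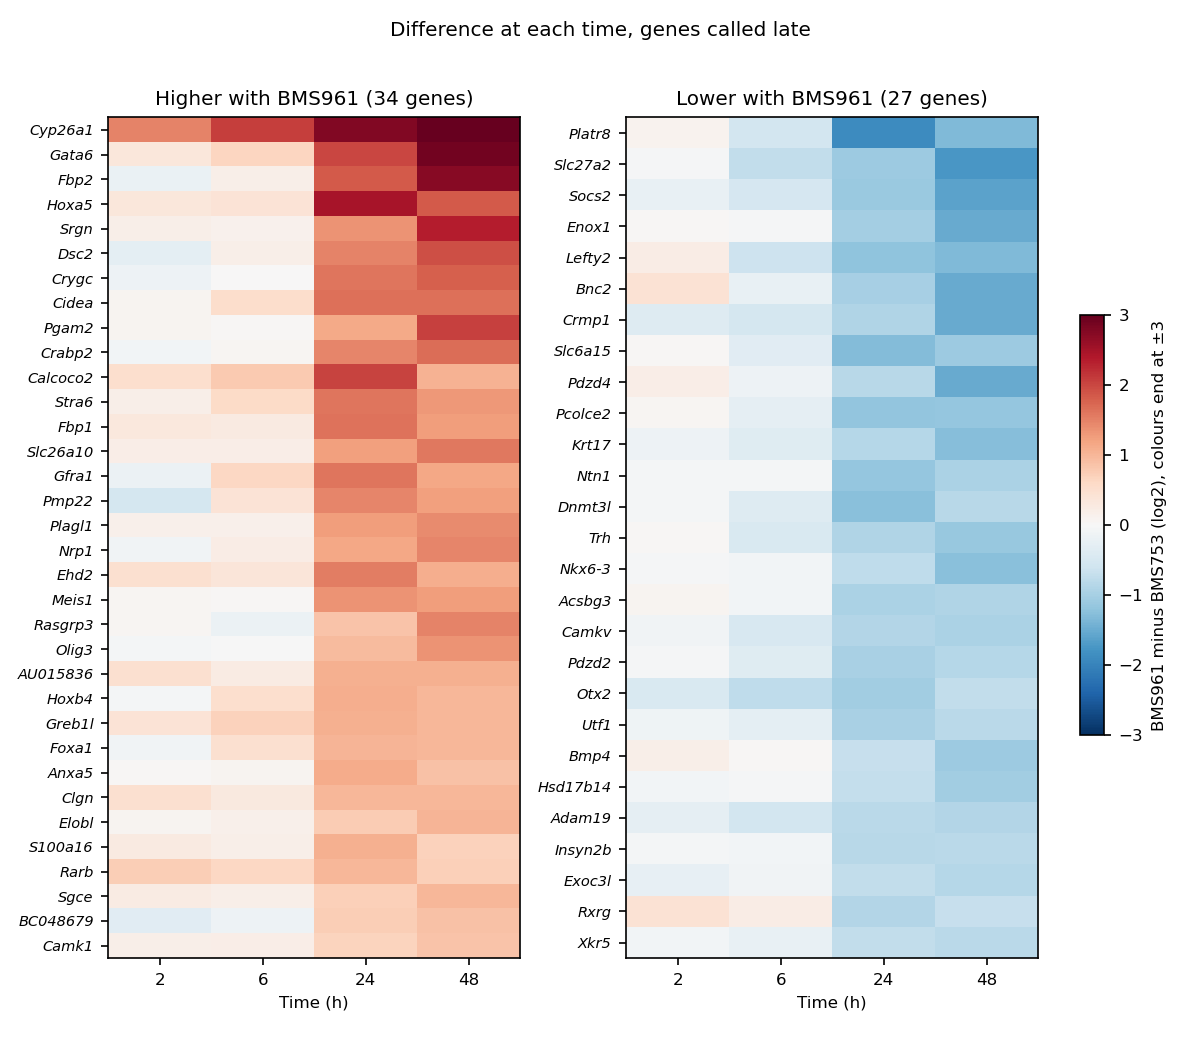
Difference (BMS961 minus BMS753, log2, colour, ending at ±3) at 2, 6, 24 and 48 h (x) for the 34 genes called higher and the 27 called lower late (y, ordered by the size of the late difference). The 2 and 6 h columns are pale for nearly all genes, Cyp26a1 being the strongest exception, and 19 of the 34 and 16 of the 27 differ more at 48 h than at 24 h.

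The remaining lists gave 0 late calls among genes of WNT and of FGF signalling, mesoderm and primitive streak, trophoblast, fibroblast, leucocyte, neural, meiosis, steroid and cholesterol synthesis, hypoxia, growth arrest, MYC and cyclin D, DNA replication, mitosis, p53, stress, interferon and ribosomal protein lists. Their late medians lay between -0.24 (MYC, cyclin D and growth regulators) and 0.11 (trophoblast). Of 23 measured replication genes 17 were lower with BMS961 at both late times and 3 higher (31.6% and 28.3% of all genes), with a median of -0.14, from -0.31 for Rrm2 to 0.13 for Tyms. Some lists of other cell types had lower median levels at 48 h than at 2 h with both agonists: the median level of the 25 neural genes was 6.41 and 6.04 with BMS961 at 2 and 48 h and 6.23 and 5.78 with BMS753, that of the 13 trophoblast genes 5.85 and 5.57 against 5.69 and 5.33, and that of the 16 fibroblast genes 5.37 and 5.13 against 5.25 and 5.20. Of the trophoblast genes 9 were higher with BMS961 at both late times and 1 lower (28.3% and 31.6% of all genes). Their part in the results above was not tested.

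For most genes called late the levels with both agonists went the same way over time. Of the 34 genes higher with BMS961, 28 were also higher at 48 h than at 2 h with BMS753, and of the 27 lower ones 26 were lower. The median change from 2 to 48 h was 2.01 with BMS961 and 0.86 with BMS753 for the 34, and -1.64 and -0.76 for the 27. With BMS641 it was 0.13 and -0.10. At 48 h BMS753 had not reached the level that BMS961 had at 24 h in all 34 of the higher genes and in 26 of the 27 lower ones. These changes over time share arrays with the calls that chose the genes and are given as a description. Choosing genes by their late gap favours the counts against the 24 h level of BMS961. The matching shares over all genes were not counted, so these counts describe the chosen genes only. Early, 23 of the 34 had the sign of their late difference at 2 h and 31 at 6 h, against 56.8% and 50.3% of all genes higher with BMS961 at those times. For the 27 lower genes it was 16 and 25, against 43.2% and 49.7% of all genes lower at those times. The sign was the same at all 4 times for 22 of the 34 (10.3% of all genes were higher at all 4) and for 16 of the 27 (8.62% were lower at all 4). The late signs were set by the choice of the genes, so these shares of all genes are too low a background. Of 5633 genes higher at both late times 2049 were higher at all 4, and of 6307 lower ones 1718 were lower at all 4.

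Whether the difference between early and late was itself larger than the spread was tested in the same fit. limma called 0 genes (0%) for late minus early, with 1028 at an unadjusted p under 0.05 and a smallest adjusted p of 0.0964. Without the 24 h pair, when late is the 48 h pair alone, it called 83 genes (74 higher and 9 lower), and without the 48 h pair 1. The largest positive values were those of Pdgfra (2.51), Dab2 (2.39), Fbp2 (2.30), Gata6 (1.95) and Gata4 (1.90). The most negative were those of Platr8 (-1.37), Bnc2 (-1.35), Enox1 (-1.28), the microRNA gene Mir363 (-1.26) and Adam23 (-1.20). The probe set of Mir363 measures RNA from that gene and not the mature microRNA. With all 4 pairs the calls late and their lack early thus do not show that the phases differ for any single gene. Late minus early was 0.18 ± 0.17 for Rarb, -0.28 ± 0.19 for Otx2 and -0.44 ± 0.21 for Aqp3. At 2 h these genes had a difference of the same sign as late, but that single pair has no test and none of them passed early.

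The genes called late were then read on the ATRA and BMS641 arrays, which share no array with the comparison and had both agents at 1 µM. Over 4 times limma called 1014 genes between ATRA and BMS641 (5.09%), 450 higher with ATRA (2.26%) and 564 lower (2.83%). With arrays centred on their median the split was 391 higher and 1148 lower. The count rests on single pairs, being 334 without the 2 h pair, 120 without the 6 h pair, 54 without the 24 h pair and 1041 without the 48 h pair. The counts of shared calls that follow come from the fit of all 4 pairs. How they change when a pair is left out was not tested. Across the 12146 probe sets with no listed gene, ATRA minus BMS641 correlated with vehicle replicate 1 minus replicate 2 at r = 0.27, 0.19, 0.53 and 0.24 at 2, 6, 24 and 48 h, against -0.15, 0.30, 0.06 and 0.12 for BMS961 minus BMS753, a description over probe sets of different arrays. The part of such array differences in the ATRA values was not tested. Of the 34 genes higher with BMS961, 18 were called higher with ATRA and 0 lower. Of the 27 lower ones, 15 were called lower and 1 higher. At all 4 times 25 of the 34 were higher with ATRA, against 12.1% of all genes, and 22 of the 27 were lower, against 21.5%. At both late times it was 31 of the 34 (27.3% of all genes) and 25 of the 27 (36.4%). The median difference of the 34 went from 0.83 at 2 h to 0.71, 1.31 and 2.75, and that of the 27 from -0.80 to -0.61, -1.59 and -2.02. The medians of both sets were thus away from 0 at 2 h already, unlike those of BMS961 minus BMS753 at 2 h, which were 0.12 and -0.03.

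Single genes differed in how far the pairs of agents matched. Cyp26a1 was at 10.06, 10.30, 10.97 and 12.01 with ATRA and between 4.78 and 4.94 with BMS641, a difference of 5.97 ± 0.32 (n = 4 pairs, adjusted p = 0.00131, limma). Lefty2 was the 1 gene called in the opposite direction: with ATRA it was at 9.85, 9.55, 10.31 and 11.02, above BMS641 at 8.44 to 8.79, a difference of 1.57 ± 0.20 (adjusted p = 0.0163). Its vehicle arrays were at 10.24 and 8.71. Crygc, Olig3 and Slc26a10, called higher with BMS961, were not called with ATRA, at differences of 0.23, 0.21 and 0.37. Crygc on the ATRA arrays was at 5.03, 5.11, 4.90 and 5.66, so that only the 2 late BMS961 arrays of the 16 retinoid arrays were above 6.

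**Figure D5:**
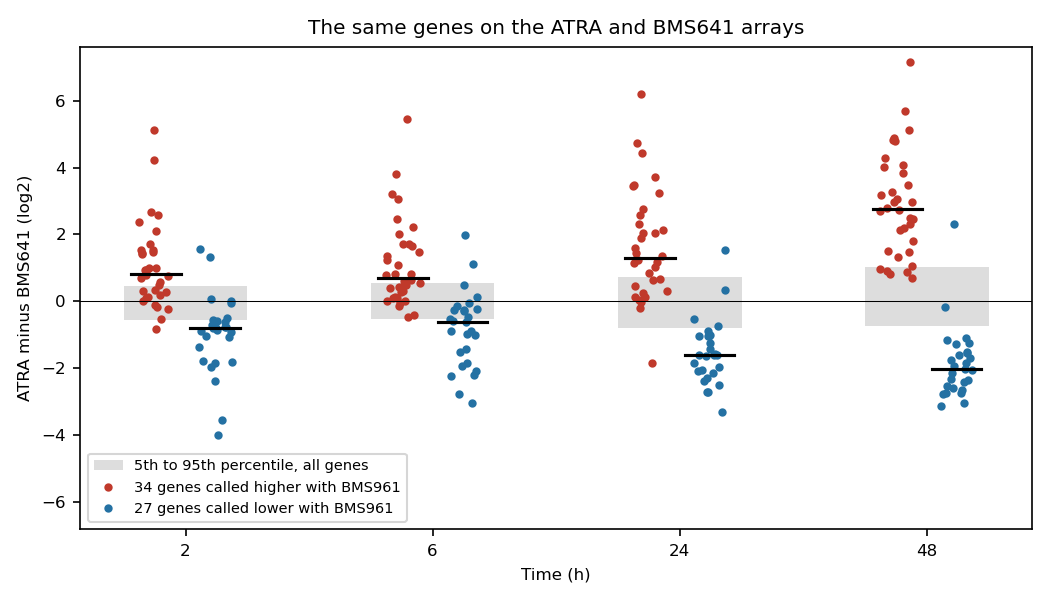
ATRA minus BMS641 (y, log2) at 2, 6, 24 and 48 h (x) for the 34 genes called higher (red) and the 27 called lower (blue) with BMS961 late, 1 point per gene, black bars at their medians and grey bands from the 5th to the 95th percentile of all genes. The red medians lie above 0 at every time (0.83, 0.71, 1.31 and 2.75) and the blue ones below it (-0.80, -0.61, -1.59 and -2.02).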

How the data were processed

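The deposited values are log2 levels of 35556 probe sets, 1 column for each of the 18 arrays, and were used unchanged. Per the submitters' processing notes they come from RMA in Affymetrix Expression Console 1.1. Which arrays were normalized together is not given in the sources used here. A platform annotation gave 21789 probe sets 1 gene symbol, 1621 several and 12146 none. Genes with several probe sets (999) took the one with the highest mean, which left 19938 genes. No dim genes were filtered out.

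Linear models in limma 3.58.1 (R 4.3.3) blocked the 8 arrays by time and took the ligand over all times (3 residual degrees of freedom, prior 6.05) or within early and late (2 residual degrees of freedom, prior 6.00). ATRA minus BMS641 was fitted alike (prior 3.54). A gene was called at a p under 0.05 after Benjamini-Hochberg adjustment over all genes. The scripts were tested on simulated data. The pairing is by time and comes from the labels, not from shared cultures.

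The comparison, the 34 gene lists (581 of 630 members measured) and the naming rule were chosen with earlier results of these data known. Named were the 10 and 10 largest same-signed differences over 4 times and late, the 5 and 5 largest early and late minus early (called or not), and list members: those called, and otherwise up to 6 a list. Other called genes, further list members with the end values of a list, and genes picked from the ATRA comparison were chosen after their values were seen. Other settings were quantile normalization, array centring, genes above the median level, averaged probe sets, a robust trended eBayes, no time block, more arrays in the fit, other fold limits and leaving out each pair. Fits of all probe sets were added after seeing the data.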

Additional observations from a re-analysis of the deposited data

How the results depend on the processing

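Under the other settings 0 of 1525 values of named genes changed sign, 1264 kept their side of the threshold, 222 lost a call and 39 gained one. Many could not have changed sign. Most of these genes had the same sign at each of the times averaged, and some settings left the difference itself unchanged. The 1264 also include genes that were called in neither fit. The late count of 61 became 36 among genes above the median level, 140 with trend and robust eBayes, 13 in a fit of the 16 retinoid arrays, 0 with all probe sets, and 24 to 173 when 1 time pair was left out. With all probe sets the prior degrees of freedom fell from 6.00 to 3, and the median residual SD was 0.128. Of the 61 genes, 7 were called under every planned setting that tested them: Cyp26a1, Hoxa5, Slc26a10, Slc6a15, Crygc, Dsc2 and Fbp1. Several list members named above were called in fewer. Foxa1 was called in 5 of 11, Otx2 in 6 of 11, Hoxb4 in 6 of 10, and Rarb, Rxrg, Lefty2 and Bmp4 in 7 of 11. Arrays centred on their median gave 91 calls, 42 higher and 49 lower. Over 4 times the count of 0 became 2 with trend and robust eBayes, 1 (Cyp26a1) in a fit of the 12 BMS arrays, and 0 to 3 when a pair was left out. Without the time pairing, that is with no time block (no replicate block), it was 0. Early, the count of 0 became 2 with trend and robust eBayes and 0 to 2 when a pair was left out. Late minus early, it became 1 with centred arrays, 3 with trend and robust eBayes, and 0 to 83 when a pair was left out. For ATRA minus BMS641 the count of 1014 became 1539 with centred arrays (391 higher and 1148 lower, after a shift of the median gene to -0.14), 283 at a minimum of 2-fold, and 54 to 1041 when a pair was left out. At single times the counts of 11, 10, 54 and 169 at 2-fold became 239, 214, 275 and 760 at 1.5-fold and 0, 1, 12 and 44 at 3-fold. Fewer genes or pairs entered some of these fits, and beyond that the cause was not tested. With 1 array per retinoid and time the number of arrays limits the precision throughout.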
